A study of Mus musculus with 11 samples.

Results

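The 10 genes described here encode the core and naive pluripotency factors Pou5f1, Sox2, Nanog, Klf2, Klf4, Klf5, Esrrb, Tfcp2l1, Prdm14 and Zfp42, and they were taken by gene name from the 2 deposited RNA-seq count tables. All 10 are among the 31518 genes listed for mouse embryonic stem cells (mESCs), and 8 are among the 29450 genes listed for mouse embryonic fibroblasts (MEFs). Pou5f1 and Zfp42 are not listed in the MEF table, so nothing is said of them in MEFs. The study deleted Atxn7l3, an adaptor subunit of the deubiquitylation module of the SAGA coactivator that removes ubiquitin from histone H2B, and asked how its loss changed transcription in both cell types. The 11 libraries come from 2 WT mESC lines (Atxn7l3+/+), 3 Atxn7l3-/- mESC lines, 3 WT MEF samples and 3 MEF samples labelled Atxn7l3-/-, all on a DBA/2 x C57BL/6 background and with no treatment. Each mESC line was derived from its own blastocyst of a heterozygous cross, kept on feeders for 2 passages and then grown without feeders with LIF, 15% foetal calf serum, 1 uM PD0325901 and 3 uM CH99021. MEFs were grown from E10.5 embryos in 10% foetal calf serum. The null allele was obtained with a FLP-recombinase strain and is constitutive, so every cell of an Atxn7l3-/- line carries it. A further WT mESC dataset, which the study set aside after principal component analysis, was not analysed here.

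Pou5f1 (OCT4), Sox2 and Nanog are DNA-binding factors that occupy enhancers together in the pluripotent cells of the embryo, and they hold each other and many other genes active. Klf2, Klf4 and Klf5 are zinc-finger factors that bind CACCC and GC-rich sites and can partly replace each other in stem cells. Esrrb, Tfcp2l1, Prdm14 and Zfp42 (REX1) mark the naive state, which LIF and inhibitors of MEK and GSK3 maintain, and fibroblasts normally lack most of these proteins. Several members are also used outside stem cells, Sox2 in neural progenitors, Klf2 in endothelium, Klf4 and Klf5 in epithelia and fibroblasts, and Tfcp2l1 in kidney epithelium.

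Library totals ranged from 34515342 to 49602605 counts, and the limit of detection was set at 3 counts in a library, or 0.057 to 0.0936 CPM (counts scaled by library total and TMM factor), a limit for counting error only. Atxn7l3 itself was at 196 and 202 CPM in WT mESCs and between 0.831 and 3.33 CPM in the Atxn7l3-/- mESCs. In MEFs it was between 86.5 and 117 CPM in WT and between 55.4 and 73.3 CPM in the libraries labelled Atxn7l3-/-, 60.3% of the WT mean (log2 fold change -0.74, adjusted p = 0.0715, edgeR), so the count does not show the loss there and these libraries are named by their label throughout. A count per gene does not say which exons the reads came from, and it says nothing of the protein. All 8 genes of an mESC identity list (among them Dppa5a, Utf1 and L1td1) were counted in mESCs, summing to between 1903 and 2694 CPM, whereas 12 fibroblast markers summed to between 19920 and 60330 CPM in MEFs. In CPM by library total alone, without the TMM factor, Y-linked genes (Ddx3y, Eif2s3y, Kdm5d and Uty) were at 169 and 397 in the WT mESCs and at 485 in Atxn7l3-/- mESC replicate 3, but at 7.67 and 1.58 in replicates 1 and 2. In MEFs they were at 0.728 in WT replicate 3 and between 173 and 455 in the other libraries. Results below that rest on the mix of these lines are given with and without them.

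The bases upstream of a gene's start site show what the members share in sequence, since several members bind each other's promoters. RefSeq start sites of the mouse build GRCm38.p6 were found for 8 of the 10 members, not for Klf5 and Prdm14. The 250 bases upstream are printed for Klf2 and Tfcp2l1, the members with a called difference in mESCs and in MEFs, and for Nanog and Zfp42, the members with a motif match. Capitals mark the matched motif. The RefSeq start of Klf2 lies downstream of the deposited start, so the end of its run lies inside the deposited gene.
Nanog chr6:122707239-122707488, plus strand: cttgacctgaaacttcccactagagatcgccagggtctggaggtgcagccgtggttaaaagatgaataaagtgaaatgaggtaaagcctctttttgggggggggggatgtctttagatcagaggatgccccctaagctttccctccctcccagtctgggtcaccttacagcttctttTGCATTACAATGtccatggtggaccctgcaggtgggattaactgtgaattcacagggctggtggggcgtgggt
Zfp42 chr8:43307010-43307259, minus strand: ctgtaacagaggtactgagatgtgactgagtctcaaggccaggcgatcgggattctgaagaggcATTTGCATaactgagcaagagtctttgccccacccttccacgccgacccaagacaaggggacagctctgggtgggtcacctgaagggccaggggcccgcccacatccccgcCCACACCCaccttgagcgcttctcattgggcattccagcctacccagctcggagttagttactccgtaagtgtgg
Klf2 chr8:72318812-72319061, plus strand: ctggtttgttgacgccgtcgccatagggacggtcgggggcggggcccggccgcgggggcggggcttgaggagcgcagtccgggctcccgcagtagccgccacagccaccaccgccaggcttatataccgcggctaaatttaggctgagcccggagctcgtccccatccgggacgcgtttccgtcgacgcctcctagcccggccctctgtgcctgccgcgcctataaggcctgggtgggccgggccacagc
Tfcp2l1 chr1:118627695-118627944, plus strand: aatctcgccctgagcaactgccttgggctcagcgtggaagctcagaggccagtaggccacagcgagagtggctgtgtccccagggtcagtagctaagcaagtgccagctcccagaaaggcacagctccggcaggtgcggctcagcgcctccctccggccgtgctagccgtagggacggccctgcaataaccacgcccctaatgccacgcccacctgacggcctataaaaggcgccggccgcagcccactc
Motifs were searched on both strands in the 32851 RefSeq promoter windows of 300 bases (250 upstream and 50 downstream). A composite of a SOX and an OCT site (CATTGT, any base, then ATGCA) was found in 9 windows (0.0274%). The printed Nanog promoter holds it on the minus strand, 73 bases before the start site. A second, overlapping Nanog window has the same site at -149 from its own start site, so both Nanog windows are among the 9. The octamer ATGCAAAT, whose first letters can overlap that composite, was found in 1.74% of windows, the ESRRB-type site TCAAGGTCA in 0.423% and the KLF-type site CCACACCC in 3.56%. The Zfp42 promoter holds the octamer on the minus strand at -186 and the KLF-type site on the plus strand at -75. No match to these letters was in the windows of Pou5f1, Sox2, Klf2, Klf4, Esrrb and Tfcp2l1. A match is a description of the letters and was not tested for binding.

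In the mm10 coordinates of the deposited tables, Pou5f1 lies at chr17:35506018-35510772, Sox2 at chr3:34650405-34652461, Nanog at chr6:122707489-122714633, Klf2 at chr8:72319033-72321656, Klf5 at chr14:99298691-99313405, Esrrb at chr12:86361117-86521628 and Tfcp2l1 at chr1:118627945-118685168, all on the plus strand. Klf4 (chr4:55527143-55532466), Prdm14 (chr1:13113457-13127163) and Zfp42 (chr8:43295063-43306980) lie on the minus strand. Counts are per gene, over its exons. In the GENCODE M21 annotation, 14.1% of the exonic bases of Pou5f1 also lie in the antisense gene Gm19553, and Sox2 lies inside Sox2ot without sharing an exonic base. Pseudogenes share 50-base stretches with some members, 8.52% of those of Zfp42 with Zfp42-ps1, 2.69% of those of Nanog with Nanog-ps1 and 0.561% of those of Pou5f1 with Gm5712, so a small part of these counts is uncertain.

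All 10 factors were expressed in mESCs by the study's measure, a median above 10 normalized reads per kb. Per kb of median transcript length, Pou5f1 had the highest level in WT mESCs, 1537 ± 164 CPM per kb (SD, n = 2), followed by Nanog at 395 ± 70.1. Esrrb (250 ± 33.4) and Klf4 (248.8 ± 18.6) came next and overlapped, then Tfcp2l1 (209 ± 30.7), Sox2 (121 ± 16.5) and Zfp42 (74.9 ± 27.5). The lowest were Klf5 (46.6 ± 2.64), which overlapped Klf2 (42.2 ± 9.57), and Prdm14 (17.7 ± 4.44). Neighbours in this order that were not named as overlapping had separate values in both WT lines, a spread of 2 samples only. The median transcript length is 592 bases for Pou5f1 and 859 for Klf4 but the longest annotated transcripts have 1362 and 3029. With the longest transcript as the length, Pou5f1 and Nanog remained first and second and Prdm14 last, whereas Klf4 moved from rank 4 to rank 7.

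The first comparison asked whether the stem cell network held its levels in mESCs without ATXN7L3. Most factors were lower in the Atxn7l3-/- lines, 8 of 10 by their fitted log2 fold change, and the median over the 10 was -0.62 against 0.04 over all 17800 genes tested. Klf2 was the only member whose decrease passed the test, 1 of 10, where 6.96% of all genes passed (edgeR's quasi-likelihood test, adjusted p of 0.05 or less over all genes). In 6 members (Sox2, Klf2, Klf4, Klf5, Prdm14 and Zfp42) all 3 Atxn7l3-/- lines were below both WT lines, but 26.6% of all genes tested showed that arrangement. Pou5f1 and Tfcp2l1, the most abundant by CPM, had values in Atxn7l3-/- lines on both sides of the WT values.

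**Figure D1:**
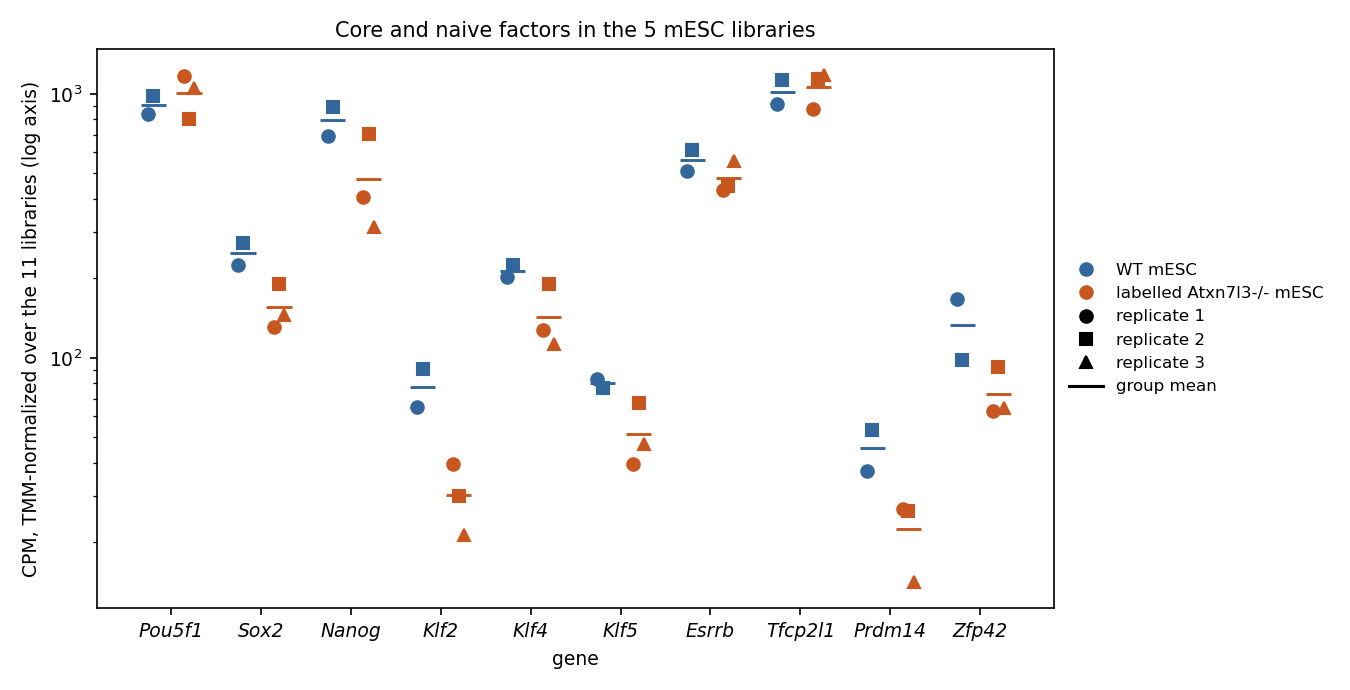
Normalized level (CPM, log axis) of the 10 factors in the 5 mESC libraries, each point a library and each line a group mean. Klf2 is between 21.3 and 39.5 CPM in the Atxn7l3-/- lines and at 65.4 and 90.4 CPM in WT, whereas the Pou5f1 and Tfcp2l1 points of the genotypes interleave.

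Among the core factors, Pou5f1 was at 841 and 978 CPM in WT replicates 1 and 2 and at 1169, 803 and 1051 CPM in Atxn7l3-/- replicates 1, 2 and 3. The WT values lie within the range of the Atxn7l3-/- values, and the fitted log2 fold change was 0.20 (standard error 0.24, 95% interval -0.36 to 0.76, edgeR adjusted p = 0.604). The interval leaves out a decrease of 2-fold. Nanog, the homeodomain factor that stabilizes self-renewal, was at 694.5 and 894 CPM in WT and at 408, 706 and 313 CPM in Atxn7l3-/- lines. Replicate 2 of the Atxn7l3-/- lines kept a WT level and the other two were lower, so the groups overlapped (log2 fold change -0.70, standard error 0.32, interval -1.45 to 0.05, edgeR adjusted p = 0.191). Sox2, the HMG-box partner of OCT4, was at 225 and 273 CPM in WT and at 131, 190 and 146 CPM in Atxn7l3-/- lines. The groups did not overlap, the mean of the Atxn7l3-/- lines was 62.4% of WT, and the difference did not pass the test (log2 fold change -0.64, standard error 0.21, interval -1.12 to -0.15, edgeR adjusted p = 0.0954).

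Klf2 was at 65.4 and 90.4 CPM in WT and at 39.5, 29.9 and 21.3 CPM in Atxn7l3-/- lines. Every Atxn7l3-/- line was below both WT lines, at a mean of 30.2 ± 9.14 CPM (SD, n = 3) against 77.9 ± 17.7 CPM (SD, n = 2), 38.8% of WT. The log2 fold change was -1.31 (standard error 0.29, interval -1.98 to -0.64, edgeR adjusted p = 0.0408). Klf2 stayed lower in each of 16 alternative fits, with log2 fold changes from -1.79 to -1.08, but its adjusted p ranged from 0.00201 to 0.545 (edgeR and DESeq2). The call was lost without WT replicate 1 (adjusted p = 0.177), WT replicate 2 (0.257), Atxn7l3-/- replicate 1 (0.0815) or Atxn7l3-/- replicate 2 (0.0591) in edgeR's test, and it was kept without Atxn7l3-/- replicate 3. Without either WT line no gene of the series passed, and without Atxn7l3-/- replicate 1 only 3 of 17530 did, so these losses say nothing of Klf2 itself. The call was also lost when all 11 libraries were fitted together (0.313), where 2.31% of genes passed, and in edgeR's test against a 2-fold change (0.545), where 1 gene did. Klf4 and Klf5 did not pass, and whether their change differed from that of Klf2 was not tested. Klf4 was at 202 and 225 CPM in WT and at 127, 190 and 112.5 CPM in Atxn7l3-/- lines, where replicate 2 lay closest to WT (log2 fold change -0.54, interval -1.09 to 0.01, edgeR adjusted p = 0.176). Klf5 was at 83.4 and 77.0 CPM in WT and between 39.6 and 67.4 CPM in Atxn7l3-/- lines, with replicate 2 again the highest (log2 fold change -0.60, interval -1.16 to -0.05, edgeR adjusted p = 0.143).

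Of the factors that mark the naive state, Tfcp2l1, Esrrb, Prdm14 and Zfp42, none passed in the main fit. Whether their changes differed from each other was not tested. Tfcp2l1, a target of LIF signalling, was at 914 and 1125 CPM in WT and at 875, 1135 and 1183 CPM in Atxn7l3-/- lines, overlapping throughout (log2 fold change 0.11, interval -0.40 to 0.62, edgeR adjusted p = 0.767). Esrrb, an orphan nuclear receptor, was at 509 and 615 CPM in WT and at 432, 449 and 557 CPM in Atxn7l3-/- lines, with replicate 3 inside the WT range (log2 fold change -0.18, interval -0.67 to 0.31, edgeR adjusted p = 0.603). For both, the interval leaves out a 2-fold change in either direction. Prdm14, which represses differentiation and DNA methylation genes, was at 37.4 and 53.5 CPM in WT and at 26.7, 26.4 and 14.1 CPM in Atxn7l3-/- lines. All 3 lay below WT, at 49.3% of its mean (log2 fold change -0.97, interval -1.71 to -0.24, edgeR adjusted p = 0.0954). Zfp42, whose transcript is a classical marker of undifferentiated cells, was at 167 and 98.3 CPM in WT and at 62.7, 92.4 and 64.6 CPM in Atxn7l3-/- lines. The groups were separated only by the gap between 92.4 and 98.3 CPM (log2 fold change -0.82, interval -1.47 to -0.18, edgeR adjusted p = 0.103).

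The mESC count depended on the fit and on the lines. It was 3 (Klf2, Prdm14 and Zfp42) in edgeR without a filter on low counts, 2 (Klf2 and Prdm14) with DESeq2, and 3 (Klf4, Klf5 and Nanog) without Atxn7l3-/- replicate 2, the one with the highest Nanog, Klf4 and Klf5 among the Atxn7l3-/- lines. Within the 3 lines with Y-linked reads, an alternative chosen after seeing the data, 4 members passed. These counts stand beside all-gene shares of 9.63% without a filter, 18.6% with DESeq2, 12.8% without Atxn7l3-/- replicate 2 and 20.8% within the lines with Y-linked reads. In those lines, with a single Atxn7l3-/- line that is assumed to vary like the WT lines, Nanog had a log2 fold change of -1.26 (edgeR adjusted p = 0.0182), Klf4 of -0.85 (0.0377), Klf2 of -1.79 (0.00707) and Prdm14 of -1.61 (0.0118). Fibroblast markers were higher in the Atxn7l3-/- mESCs, 3 of 11 tested passing (median log2 fold change 2.54), and the 12 markers summed to between 3083 and 5228 CPM against 1396 and 2428 CPM in WT. Most of that sum was fibronectin (Fn1), at 2740 to 4854 CPM against 1348 and 2293 CPM, which did not pass (log2 fold change 0.99, edgeR adjusted p = 0.118). Their part in the levels above was not tested, and in bulk RNA a smaller share of cells and less RNA per cell cannot be told apart.

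**Figure D2:**
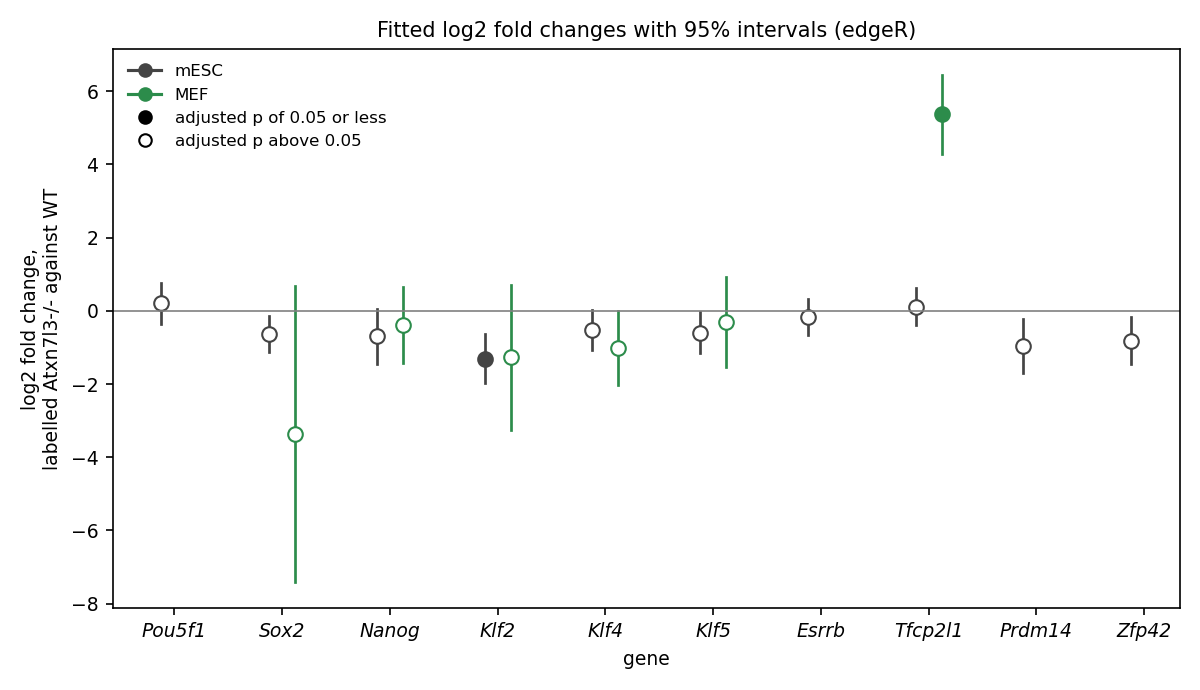
Fitted log2 fold change (y axis) of each factor in mESCs and MEFs with its 95% interval from edgeR, filled where the adjusted p is 0.05 or less. Klf2 at -1.31 is the filled mESC point and Tfcp2l1 at 5.36 the filled MEF point. Members not listed in the MEF table or removed there by the filter on low counts have no MEF point.

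Genes that work with these factors, or are active with them in stem cells, were given by 2 lists. Of 20 partner factors, all tested in mESCs, 5 passed and all 5 were lower, where 3.88% of all genes passed as lower and 3.08% as higher, and the list median was -0.47. Among them were Foxd3 (a forkhead repressor, log2 fold change -1.85, edgeR adjusted p = 0.0308), Nr5a2 (a nuclear receptor that can replace OCT4 in reprogramming, -1.80, adjusted p = 0.0224), Sall4 (a zinc-finger partner of OCT4, -1.50, adjusted p = 0.0211) and Tbx3 (a T-box factor downstream of LIF, -1.15, adjusted p = 0.027). Tbx3 was at 407 and 311 CPM in WT and between 151 and 163 CPM in the Atxn7l3-/- lines, far below both WT lines. Of 28 genes enriched in stem cells, 2 passed as higher and 4 as lower, with a median of -0.44. Trh (thyrotropin-releasing hormone, -3.84, edgeR adjusted p = 0.0211), L1td1 (an RNA-binding protein, -2.01, adjusted p = 0.0459) and Tdgf1 (the NODAL co-receptor Cripto, -1.71, adjusted p = 0.0299) were lower and Epcam (an epithelial adhesion protein, 1.45, adjusted p = 0.0317) was higher. The 11 calls over both lists, of 48 genes, became 0 in the fits without WT replicate 1, WT replicate 2 or Atxn7l3-/- replicate 1, in which 0, 0 and 3 genes of the series passed, and 20 with DESeq2, in which 18.6% of all genes did. Among 27 tested paralogues of the members, Klf3 (-1.87, edgeR adjusted p = 0.0211) and Klf17 (-2.75, adjusted p = 0.0402) were lower. Klf3 fell from 129 and 110.0 CPM to between 22.2 and 41.8 CPM, and Klf17 was at 50 and 33 counts in WT and 3, 4 and 8 counts in the Atxn7l3-/- lines.

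**Figure D3:**
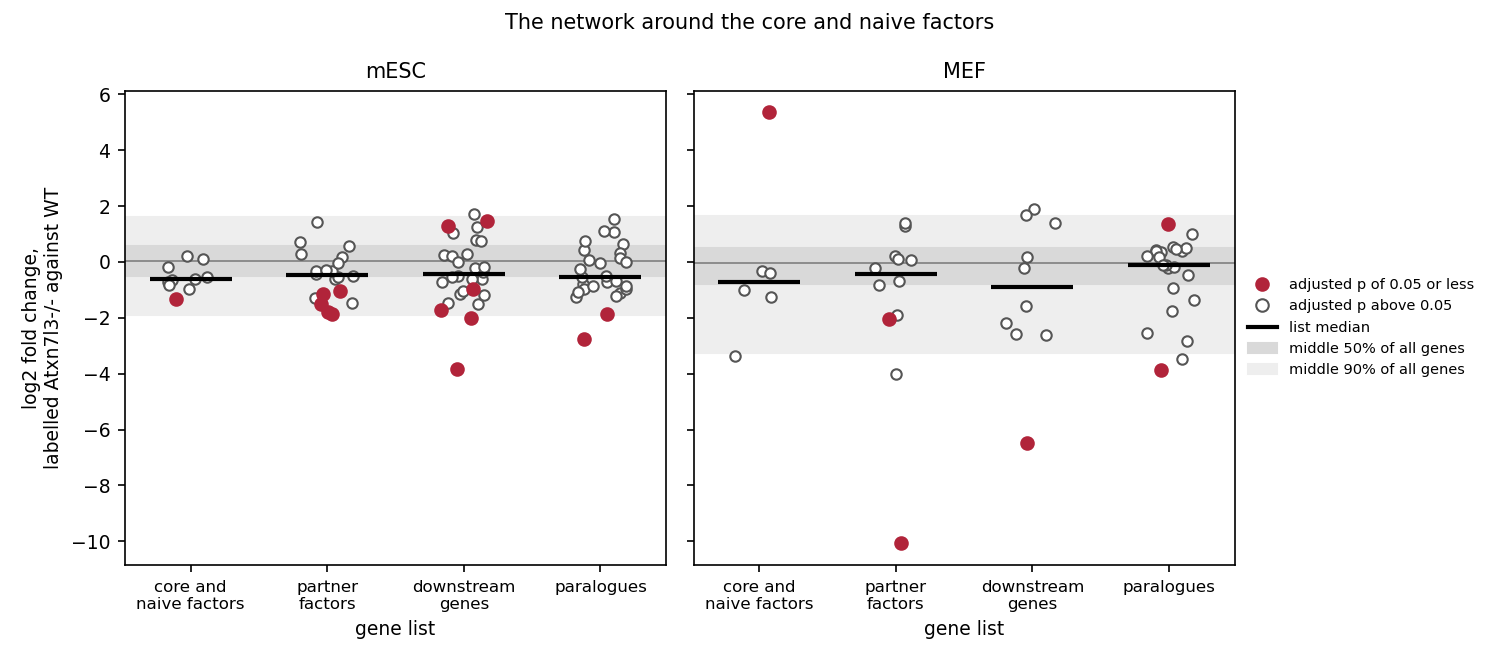
Log2 fold change of the tested genes of each list in mESCs (left) and MEFs (right), filled where the adjusted p is 0.05 or less, with list medians as black lines and the middle 50% and 90% of all tested genes as grey bands. In mESCs the medians of the 4 lists lie between -0.62 and -0.44, below the all-gene median of 0.04. The lowest MEF point is Foxd3, which has 0 counts in the libraries labelled Atxn7l3-/-, so its fitted position is no estimate of size.

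The second comparison set WT MEFs against WT mESCs, to show which factors a fibroblast culture retained. All 8 listed members were lower in WT MEFs and 7 passed, where 53.9% of 19326 genes did (edgeR, joint fit of the 11 libraries). The members were chosen as stem cell factors, so this direction was largely set by the choice and the count is a description. Esrrb and Prdm14 stayed in this fit through the mESC libraries. Nanog was at 0.593 to 1.06 CPM in WT MEFs, 1008-fold lower (log2 fold change -9.98, standard error 0.46), and Tfcp2l1 at 1.07 to 1.56 CPM, 792-fold lower (-9.63, standard error 0.48). Prdm14 had 1, 0 and 1 counts in the WT MEF replicates, and the ratio of WT mESC to WT MEF counts was 2760 with a counting interval of 763 to 22800. The KLF genes, which fibroblasts also use, were still counted there. Klf4 was at 28.4, 37.3 and 76.5 CPM in WT MEFs, 4.52-fold below WT mESCs (-2.18, edgeR adjusted p = 0.00134), and Klf5 at 3.31 to 10.49 CPM, 12.6-fold below (-3.66, edgeR adjusted p = 9.96e-05). Klf2 was the member that did not pass (-1.19, interval -2.83 to 0.46, edgeR adjusted p = 0.199), with 6.32, 61.7 and 34.9 CPM in the 3 WT MEF replicates. Sox2 passed narrowly (-3.35, edgeR adjusted p = 0.0437), from 4.43, 21 and 47.8 CPM in replicates 2, 3 and 1, and in 9 of the 19 alternatives that gave a p-value it did not, among them the fit without WT MEF replicate 2 (edgeR adjusted p = 0.0905). Of 19 partner factors tested, 13 passed as lower and 1 as higher (Stat3, the transducer of LIF, 1.22, edgeR adjusted p = 0.000424). Of 24 stem cell genes 20 passed as lower, where 27.1% of all genes passed as lower. Both lists were chosen for their role in stem cells, so these counts are a description too. Only 10 of the 24 passed the filter on low counts in the MEF fit, and the rest stayed in the joint fit through the mESC libraries.

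In the MEFs labelled Atxn7l3-/-, Tfcp2l1 was strongly increased. It was the only member called in the main, unpaired fit, 1 of 6 tested, where 9.41% of 15958 genes passed. Tfcp2l1 was at 1.24, 1.56 and 1.07 CPM in WT replicates 1, 2 and 3 and at 75.1, 60.4 and 27.2 CPM in the libraries labelled Atxn7l3-/-. The lowest of the latter was far above the highest WT library, and the raw counts were 44 to 61 against 910 to 2833. The fitted log2 fold change was 5.36 (standard error 0.46, interval 4.28 to 6.45, 41.2-fold, edgeR adjusted p = 0.00591), and 5.27 with the replicate block (adjusted p = 0.0107). It passed in all 17 alternatives, with log2 fold changes from 5.09 to 5.70 and an edgeR or DESeq2 adjusted p of 0.0401 or lower. The increased level, 54.2 ± 24.5 CPM (SD, n = 3), lay far below the 1019 ± 149 CPM (SD, n = 2) of WT mESCs. Of the exonic bases of Tfcp2l1, 1.38% are shared with the small nuclear RNA gene Gm23497.

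**Figure D4:**
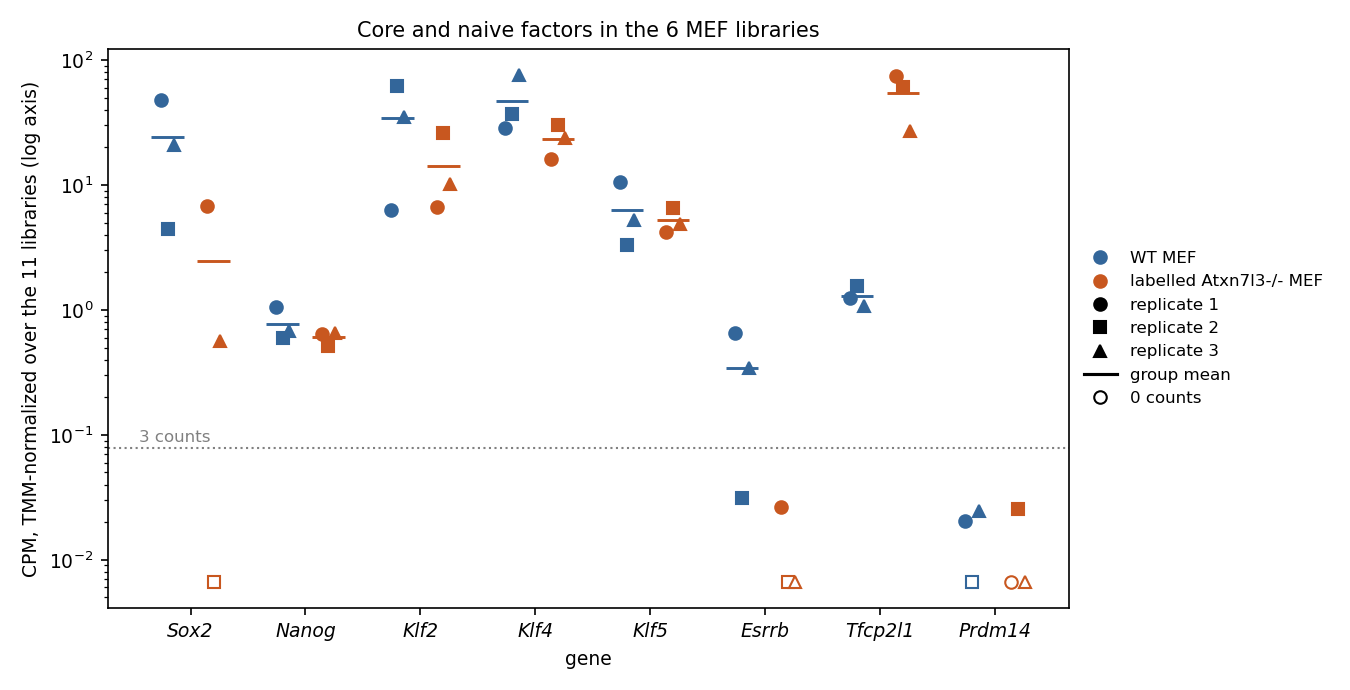
Normalized level (CPM, log axis) of the 8 listed factors in the 6 MEF libraries, each point a library and lines the group means above the floor, with open marks for 0 counts drawn below the dotted line of 3 counts. Tfcp2l1 is near 1 CPM in WT and between 27.2 and 75.1 CPM in the libraries labelled Atxn7l3-/-, whereas Prdm14 does not exceed 1 count anywhere.

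Some markers of other cell types were higher along with Tfcp2l1, and others on the same lists were not. The germ cell gene Ddx4, an RNA helicase, was at 19, 44 and 18 counts in WT MEFs and at 4000, 13610 and 3143 counts in the libraries labelled Atxn7l3-/- (log2 fold change 7.98, edgeR adjusted p = 0.00936). It was the only germ cell marker of 4 tested that rose, and of the 8 listed the germ cell factors Dazl, Nanos3 and Tfap2c had at most 2 counts in a library labelled Atxn7l3-/-. The list summed to between 3.34 and 5.83 CPM in WT and to between 95.4 and 348 CPM in the labelled libraries. Nearly all of the sum in the labelled libraries was Ddx4 alone. Kit (-3.64, edgeR adjusted p = 0.0968), Prdm1 (-1.35, edgeR adjusted p = 0.21) and Dnd1 (-1.11, edgeR adjusted p = 0.2515) were lower without passing. Gata4 (5.26, edgeR adjusted p = 0.0177) and Gata6 (4.86, adjusted p = 0.00878), endoderm and mesoderm factors, rose as well, while Sox7, an endoderm and endothelial factor, fell (-2.85, adjusted p = 0.0343) and the laminin gene Lama1 was at -2.85 without passing (adjusted p = 0.0694, edgeR). The 9 primitive endoderm markers summed to between 2081 and 3749 CPM in WT and between 3771 and 4914 CPM in the libraries labelled Atxn7l3-/-. By far the most abundant of those tested was the collagen gene Col4a1 (average log2 CPM 11.36). It did not pass (log2 fold change 0.53, edgeR adjusted p = 0.3995). Of the epithelial markers, the keratin Krt18 rose by 5.49 (edgeR adjusted p = 0.0189), and Krt8 was higher without passing (2.80, edgeR adjusted p = 0.208). Krt19 (-0.37, edgeR adjusted p = 0.73) and Cdh1 (-1.58, edgeR adjusted p = 0.229) were lower without passing. Epcam and Esrp1 had at most 7 counts in any MEF library. The part of other cell types in the Tfcp2l1 level was not tested.

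Sox2 was lower in the MEFs labelled Atxn7l3-/- but varied widely. It was at 47.8, 4.43 and 21 CPM in WT replicates 1, 2 and 3 and at 6.76, 0 and 0.569 CPM in the libraries labelled Atxn7l3-/- (raw counts 2345, 142 and 861 against 255, 0 and 19). Each was lower than the WT library of the same number, but the groups overlapped, WT replicate 2 lying below labelled replicate 1. The log2 fold change was -3.38 (standard error 1.70, interval -7.42 to 0.66, edgeR adjusted p = 0.214). With the replicate block it was -4.69 and passed (edgeR adjusted p = 0.0411), where 14% of all genes passed. All 6 neural and neural crest markers tested were lower as well, and 3 were called, where 4.39% of all genes passed as lower. Among these were Sox10 (log2 fold change -8.05, edgeR adjusted p = 0.0168) and Ngfr (-7.13, adjusted p = 0.024). The 9 markers summed to 191, 64.1 and 352 CPM in WT replicates 1, 2 and 3 and to 12.03, 1.87 and 36.0 CPM in the libraries labelled Atxn7l3-/-. Sox10, which defines neural crest, had at most 3 counts in the latter, and Sox21, a Sox2 relative of neural progenitors, fell by 3.88 on the log2 scale (edgeR adjusted p = 0.0378). The order of the libraries by the summed markers was not their order by Sox2, and the part of neural cells in the Sox2 level was not tested.

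**Figure D5:**
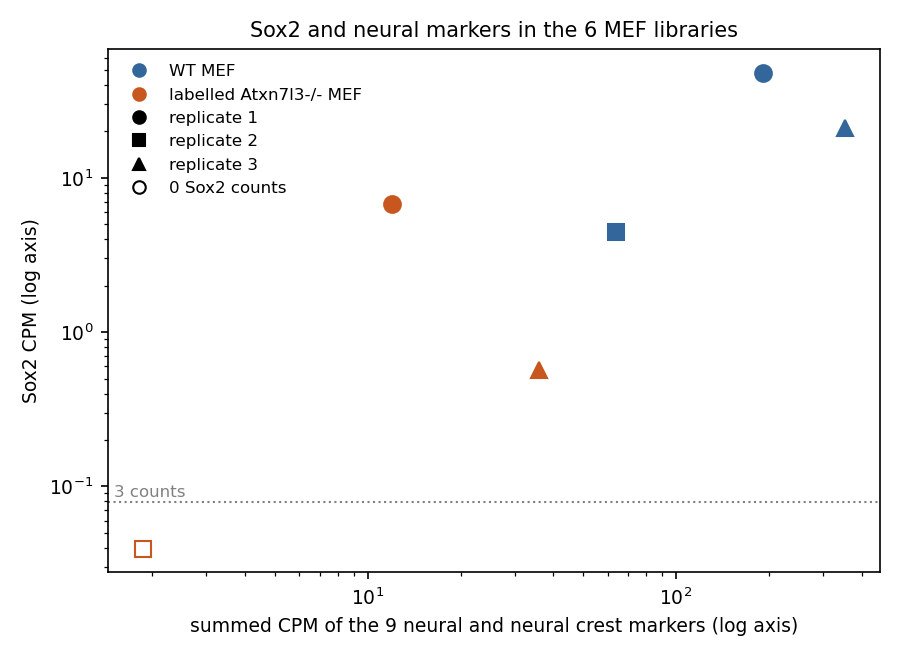
Sox2 level against the summed level of 9 neural and neural crest markers in the 6 MEF libraries, both in CPM on log axes. The 3 WT libraries lie at summed marker levels of 64.1 CPM and above and the libraries labelled Atxn7l3-/- at 36.0 CPM and below, and the open mark is the library with 0 Sox2 counts.

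The remaining members gave no call in MEFs. Klf4 was at 28.4, 37.3 and 76.5 CPM in WT and at 16.2, 30.4 and 23.8 CPM in the libraries labelled Atxn7l3-/-, overlapping (log2 fold change -1.02, interval -2.03 to -0.0036, edgeR adjusted p = 0.154). Klf2 was lowest in replicate 1 and highest in replicate 2 of both groups, with 6.32, 61.7 and 34.9 CPM in WT replicates 1, 2 and 3 and 6.71, 25.9 and 10.2 CPM in the labelled replicates (-1.27, interval -3.24 to 0.71, edgeR adjusted p = 0.321). With counts adjusted for GC content in each library, the log2 fold changes turned to 0.26 for Klf4 and 0.05 for Klf2. Endothelial markers, which share the use of Klf2, summed to 78.5, 37.2 and 19.2 CPM in WT replicates 1, 2 and 3. In the labelled replicates 1, 2 and 3 they summed to 22.0, 10.8 and 5.51 CPM. In both groups replicate 1 had the highest of these sums and the lowest Klf2, and their part in the Klf2 level was not tested. Of the 6 endothelial markers tested, 4 were lower and 2 higher, Tek among the latter (2.75), and 0 passed. Macrophage markers summed to between 182 and 399 CPM in WT and between 126 and 732 CPM in the labelled libraries. Klf5 (-0.31, interval -1.54 to 0.92) and Nanog (-0.39, interval -1.43 to 0.64) overlapped between the groups, and Nanog had 19 to 52 counts in a MEF library. Esrrb and Prdm14 were removed by the filter on low counts. Esrrb had 32, 1 and 14 counts in WT and 1, 0 and 0 in the libraries labelled Atxn7l3-/-, a ratio of 42.4 with a counting interval of 7.25 to 1710 that leaves out the spread between samples. It passed in DESeq2, in 1 fit of all 11 libraries and without WT replicate 2, where 20.9%, 18.5% and 5.23% of all genes passed. The joint fit kept Esrrb through the mESC libraries, and the fit without WT replicate 2 through the WT libraries. These passes are therefore no separate support. Prdm14 had 0 or 1 counts in every MEF library, so no difference was detectable at this depth.

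Of 20 partner factors 12 were tested in MEFs and 2 passed, both as lower, where 4.39% of all genes passed as lower. They were Tbx3 (-2.04, edgeR adjusted p = 0.0443), which was also called in mESCs, and Foxd3, which also specifies neural crest. Foxd3 had 45, 25 and 359 counts in WT and 0 in all 3 libraries labelled Atxn7l3-/-, at least 42.5-fold lower with 3 counts in each library as the floor, and at least 10.3-fold lower without WT replicate 3, an alternative chosen after seeing the data. Of 28 stem cell genes 10 were tested and 1 passed, Alpl, tissue-nonspecific alkaline phosphatase, as lower (-6.49, edgeR adjusted p = 0.0312), with 334, 854 and 50 counts in WT and 7, 4 and 3 in the libraries labelled Atxn7l3-/-. In mESCs Alpl was called higher (1.297, edgeR adjusted p = 0.0379), and the interaction passed (-7.71, edgeR adjusted p = 0.0109). The count over both lists was 7 with the replicate block and 9 with DESeq2, where 14% and 20.9% of all genes passed, and 0 without WT replicate 1, labelled replicate 1 or labelled replicate 2, where 2.85%, 1.51% and 1.71% did.

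The last comparison tested directly whether the difference between genotypes was itself different in the 2 cell types, by the interaction in the joint fit. Of the 8 members in that fit, Tfcp2l1 and Esrrb passed, where 11.4% of 19326 genes did. The Tfcp2l1 effect in MEFs exceeded that in mESCs by 5.33 on the log2 scale (standard error 0.51, interval 4.20 to 6.46, edgeR adjusted p = 0.000597). For Esrrb the difference was -4.69 (standard error 1.28, edgeR adjusted p = 0.0409), but it rests on MEF libraries with 0 to 32 counts and was lost in 12 of 19 alternatives, among them each fit without 1 of the 5 mESC libraries. For Klf2 the difference was 0.10 with an interval of -2.14 to 2.34, which includes a 2-fold difference in both directions, so whether the Klf2 effect differed between cell types was not resolved. The other intervals also included 0, from -1.65 to 0.78 for Klf4, -0.91 to 1.62 for Klf5, -0.75 to 1.45 for Nanog and -6.46 to 1.19 for Sox2.

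Over the 11 libraries, the gene with the most similar log2 CPM pattern was found for each of the 8 members of the joint fit among 19326 genes. For Tfcp2l1 it was Sh3tc1 (Pearson r = 0.997), for Esrrb Slc5a11 (0.998), for Nanog Nlrp4f (0.998) and for Prdm14 Nlrp4f too (0.999). Sox2 was most like the neurofilament gene Nefm (0.977), Klf5 like Ak7 (0.988), Klf4 like 5730507C01Rik (0.971) and Klf2 like the histone gene H2afx (0.946). These values describe 11 libraries that share a cell type or genotype, and for most members they follow the gap between mESCs and MEFs.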

How the data were processed

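The authors prepared stranded poly(A)+ libraries, trimmed and mapped the reads to mm10 (bcl2fastq 2.17.1.14, cutadapt 1.10 and STAR 2.5.3a), and deposited raw counts per gene (HTSeq 0.6.1p1, per the submitters' processing notes). The annotation release and strand setting are not given in the sources used here. The deposited normalized signal is the count divided by a size factor (DESeq2 1.16.1), given also per kb of median transcript length; it was used only for the expression threshold of 10. The deposited fold changes and p-values of the authors' own test were not used.

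Raw counts were tested with edgeR 4.0.16 in R 4.3.3 (filterByExpr, TMM, quasi-likelihood test, Benjamini-Hochberg over all genes tested), each cell type separately. The 26398 genes of both tables were fitted jointly for comparisons between cell types. CPM use TMM factors of the joint fit. Standard errors are the log2 fold change over the square root of F. Alternatives were RLE and upper-quartile scaling, no filter, 10 counts in every library, DESeq2 1.42.0, a GC correction (lowess span 0.3), a replicate block, 1 fit of all libraries, a test against a 2-fold change and leaving out each library. Scripts were tested on simulated data. Python 3.11.15, pandas 2.3.3, numpy 2.4.6 and matplotlib 3.10.9 were used. Members and lists were chosen with earlier results of these data known. The text names all 10 members, Atxn7l3, up to 4 called genes per list and comparison by size of change, and the gene most like each member (prior count 2). Some called list genes are counted but not reported here by name.

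Same-numbered MEF libraries deviated together from their group means (r of 0.473, 0.161 and 0.24 over 15958 genes). Their numbers were taken as pairs only in the replicate block, an alternative, and the main MEF fit is unpaired. In mESCs same-numbered libraries did not deviate together (0.008 and -0.172), and the lines come from separate blastocysts. Nothing shows separate cultures of a line, so p-values measure the spread between these samples.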

Additional observations from a re-analysis of the deposited data

Results flagged for a closer look

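The interaction of cell type and genotype drew attention to 2 members. The log2 fold change of Tfcp2l1 in MEFs minus that in mESCs was 5.33 (edgeR adjusted p = 0.000597). It fell from the threshold only within the libraries with Y-linked reads (5.07, edgeR adjusted p = 0.0523). The log2 fold change of Esrrb in MEFs minus that in mESCs was -4.69 (edgeR adjusted p = 0.0409), on MEF counts of 0 to 32.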

How the results depend on the processing

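The number of members called in mESCs, 1, became 3 with no filter, 2 with DESeq2, 0 with 1 fit of all 11 libraries, 0 in the test against a 2-fold change, 4 within the libraries with Y-linked reads (an alternative chosen after seeing the data), and 0 to 3 when a library was left out. In MEFs the 1 member became 2 with DESeq2, 2 with the replicate block, 2 with 1 fit of all 11 libraries, and 1 to 2 when a library was left out. The 2 members with a different effect in the cell types became 1 with 10 counts in every library and 1 with the GC correction. There 17.2% and 8.76% of all genes passed, against 11.4% in the main fit. The libraries with Y-linked reads leave 1 Atxn7l3-/- mESC line, so no count is given for them. When a library was left out, Esrrb was lost in some fits, as given above. The 7 members called between WT MEFs and WT mESCs became 4 with 10 counts in every library, where 5 members were tested, and 6 to 7 when a library was left out, with Sox2 the member lost. The 11 partner and stem cell genes called in mESCs became 18 with no filter, 20 with DESeq2, 1 with 1 fit, 0 against a 2-fold change and 0 to 12 when a library was left out. The 3 in MEFs became 7 with no filter, 1 with 10 counts, 9 with DESeq2, 7 with the replicate block, 6 with the replicate block and GC correction, 11 with 1 fit, 0 against a 2-fold change, 1 within the libraries with Y-linked reads and 0 to 2 when a library was left out. In mESCs no gene of the series passed without either WT line, so those counts of 0 say nothing of the members. With fewer libraries the test has fewer samples, and otherwise the cause was not tested. The share of all genes passing also moved with the setting. In MEFs it was 9.41% in the main fit, 6.44% with no filter and 6.43% with 10 counts in every library. It was 20.9% with DESeq2, 14% with the replicate block and 10.7% with that block and GC correction. With 1 fit it was 18.5%, against a 2-fold change 2.71% and within the libraries with Y-linked reads 1.2%. Shares for mESCs are given above.

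Some log2 fold changes turned their direction, none of them past the threshold. With the GC correction these were Klf2 in MEFs (0.0546, and 0.0551 with the replicate block), Klf4 in MEFs (0.263 and 0.1958), the interaction of Klf4 (1.002 and 0.7528) and that of Nanog (-0.0149 and -0.16). Tfcp2l1 in mESCs was at -0.0543 with the replicate block and GC correction, and from -0.0257 to 0.2501 when a library was left out. The Klf2 interaction was -0.0115 with upper-quartile scaling and from -0.6563 to 0.8355 when a library was left out. Leaving out a library gave -0.6828 to 0.0911 for the Klf4 interaction, -1.6812 to 0.8196 for that of Prdm14 and -0.5919 to 0.2847 for Klf5 in MEFs. Within the libraries with Y-linked reads Esrrb in mESCs was at 0.0667 and the Klf4 interaction at 0.4524. In mESCs, where the numbers do not pair the lines, the replicate block left Klf2 as the member called (edgeR adjusted p = 0.048). The all-gene median moved from 0.0435 to -0.0953 in mESCs with DESeq2, and from -0.0557 to -0.1831 in MEFs. DESeq2 gave no p-value for Sox2 between the cell types. MEF depth limits Esrrb and Prdm14, which had 32 counts or fewer in every MEF library.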

Other observations

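Genes of the state in which a few stem cells resemble the early cleavage embryo were strongly lower in Atxn7l3-/- mESCs. All 7 of the tested markers passed as lower, where 3.88% of all genes did (median log2 fold change -5.50, edgeR's quasi-likelihood test). Among them were Zscan4d (-6.63, edgeR adjusted p = 0.0211), a zinc-finger gene that marks this state, and Zfp352 (-4.87, edgeR adjusted p = 0.0286). The listed markers summed to between 13.5 and 18.6 CPM in WT and between 0.128 and 0.435 CPM in the Atxn7l3-/- lines. The list was chosen with earlier results of these data known, and the filter on low counts kept these markers through the WT lines. The count of passes is therefore a description and no separate support. Without either WT line no gene of the series passed. Zscan4c, Zscan4d and Zscan4f are near-identical copies, so counts may be split among them. Of 9 formative and primed markers tested, T (Brachyury), a factor of early mesoderm, was the one that passed, at 65 and 97 counts in WT and 3, 3 and 4 counts in the Atxn7l3-/- lines (-4.29, edgeR adjusted p = 0.0211). The neurotrophin receptor Ngfr fell in both cell types, in mESCs from 37.5 and 32.0 CPM to between 5.93 and 8.63 CPM (-2.17, edgeR adjusted p = 0.0211).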
